A study of Mus musculus with 4 samples.

Results

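The expression of 10 genes of the osteoblast lineage and of mineralization was examined in PDGFRα reporter+ and PDGFRα reporter- periosteal cells of the mouse. They were found by gene symbol, all 10 among the 45802 symbols of the deposited table. A value in all 4 libraries was listed for 9 of them (*Runx2*, *Sp7*, *Dlx5*, *Msx2*, *Alpl*, *Phex*, *Spp1*, *Ibsp* and *Dmp1*), and *Bglap* had a value in 3. Across the table, 14415 genes had a value in all 4 libraries.

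Periosteum, the outer sheath of bone, was taken from the hindlimbs of male Pdgfrα-mTmG mice that were 9 to 10 weeks old. All animals had been given 5 days of tamoxifen (150 mg/kg each day), and bones were taken 14 days after the last dose. Tamoxifen activates CreER in cells with an active *Pdgfra* promoter and turns their membrane tdTomato into membrane GFP for good, so that the reporter records promoter activity at the time of treatment and not at the time of sorting. Cells from 3 to 6 mice, according to the sample labels (the study's methods give another range), were pooled and grown for 1 passage in medium with bFGF, a fibroblast growth factor, at 10 ng/mL. GFP+ cells (PDGFRα reporter+) and tdTomato+ cells (PDGFRα reporter-) were then sorted, both after removal of cells with CD31, CD45 or Ter119, and 2 total RNA libraries were sequenced for each of them. The table names these libraries by population and by a number, 2 or 3, whose meaning is not given. The growth protocol names no osteogenic medium.

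Osteoblasts build bone in steps that these genes mark. *Runx2* commits mesenchymal cells to the lineage and *Sp7* (osterix) acts after it, while the homeobox factors *Dlx5* and *Msx2* adjust the process. Alkaline phosphatase, encoded by *Alpl*, frees phosphate and removes the mineralization inhibitor pyrophosphate, and matrix proteins such as bone sialoprotein, osteopontin and osteocalcin follow. *Phex* and *Dmp1* belong to late osteoblasts and osteocytes, in which they restrain release of the phosphate-lowering hormone FGF23.

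The values were log2 expression values that the authors had quantile normalized, which gives every library nearly the same set of values, so that they differ mainly in the order of the genes. They ran from -10.1 to 11.7 around a median of 1.48. The linear unit and the depth are not stated, so that no counting error can be given and a rank among genes may carry transcript length. *Pdgfra* itself was listed at 7.78 and 7.62 in the PDGFRα reporter+ libraries 2 and 3 and at 7.87 and 7.44 in the PDGFRα reporter- libraries. Its levels overlapped (difference 0.05 ± 0.24, SE), and all 6 markers of periosteal stromal cells had values in all libraries. Of the excluded cells, the CD45 gene *Ptprc* had log2 values of -1.28 and -0.39 in PDGFRα reporter+ cells and of -2.30 and -1.22 in PDGFRα reporter- cells. The CD31 gene *Pecam1* was listed at -4.68 and -4.79 in PDGFRα reporter+ and at -1.99 and -1.11 in PDGFRα reporter- cells. These are bulk samples, in which fewer cells of a type cannot be told apart from less RNA per cell.

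**Figure D1:**
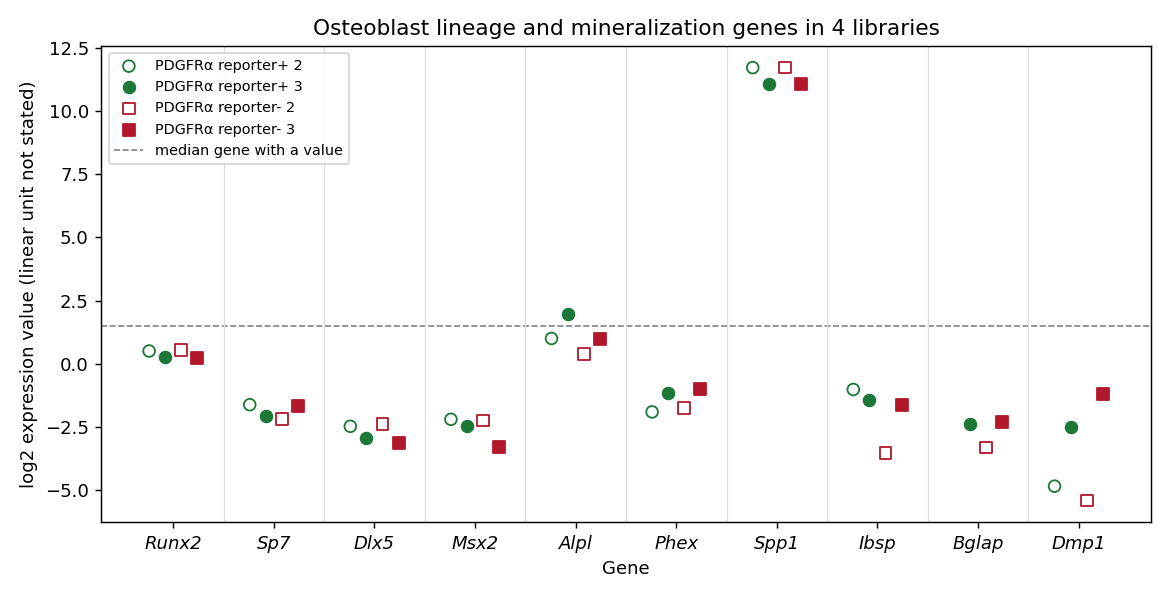
Deposited log2 value (vertical axis, linear unit not stated) of the 10 genes in the 4 libraries, with circles for PDGFRα reporter+, squares for PDGFRα reporter-, open symbols for number 2, filled symbols for number 3 and a dashed line at the median of 1.48. *Spp1* lies at 11.1 to 11.7, while *Dmp1* is lowest in both libraries numbered 2, at -4.86 and -5.43.

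Most of these genes were listed low. The mean log2 value over the 4 libraries was below 0 for 6 of the 9 genes with 4 values. Of all 14415 genes with 4 values, 10224 had a mean of at least 0. Only *Runx2* (0.39), *Alpl* (1.08) and *Spp1* (11.4) had a mean above 0, and *Spp1* alone lay above the median gene in every library.

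The sequences bear on how far these values can be told apart. *Bglap* (osteocalcin, chr3:88383501-88384464, minus strand, GRCm38) stands beside *Bglap2* (chr3:88377736-88378699) and *Bglap3* (chr3:88368616-88372743). The coding sequences of *Bglap* and *Bglap2* have 285 bases each and differ at 4, an identity of 98.6%, and those of *Bglap* and *Bglap3* differ at 13. The first 120 coding bases of the 3 genes are shown from GENCODE M21 transcripts, with capitals at the 5 positions where the 3 are not all the same.
Bglap: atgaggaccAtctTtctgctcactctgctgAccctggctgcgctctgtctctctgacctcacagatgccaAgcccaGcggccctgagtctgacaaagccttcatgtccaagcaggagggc
Bglap2: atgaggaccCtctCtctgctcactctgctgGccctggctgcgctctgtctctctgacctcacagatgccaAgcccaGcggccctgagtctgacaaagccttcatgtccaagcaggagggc
Bglap3: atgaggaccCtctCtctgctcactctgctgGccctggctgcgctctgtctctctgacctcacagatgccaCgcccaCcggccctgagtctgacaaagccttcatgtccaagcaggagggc
Of all 75-base windows of the *Bglap* transcript, 66.1% occur unchanged in *Bglap2*. The read length and the rule for reads that fit several genes are not stated, so that the share of each gene in these values is uncertain.

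*Dmp1* (chr5:104202613-104214102), *Ibsp* (chr5:104299171-104311469) and *Spp1* (chr5:104435118-104441050) lie on the plus strand of chromosome 5 in a cluster of genes for secreted matrix proteins that spans 270 kb from *Dspp* to *Spp1*. The bases upstream of their starts are shown, with those of *Bglap*, since the cluster holds the members with the highest (*Spp1*) and the lowest (*Dmp1*) mean value. They are from RefSeq on GRCm38.p6, and each ends at the first base before the RefSeq or GENCODE start, whichever comes first. Capitals mark 3 motifs, namely ACCACA (bound by Runx factors) and TAATTG (a homeobox core) on either strand, and TATAAA on the strand of the gene.
Spp1, chr5:104434861-104435110, plus strand: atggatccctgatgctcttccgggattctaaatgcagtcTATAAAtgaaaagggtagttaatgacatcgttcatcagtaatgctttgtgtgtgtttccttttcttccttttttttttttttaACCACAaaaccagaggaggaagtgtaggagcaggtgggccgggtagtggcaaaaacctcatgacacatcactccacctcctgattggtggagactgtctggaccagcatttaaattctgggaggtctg
Dmp1, chr5:104202367-104202612, plus strand: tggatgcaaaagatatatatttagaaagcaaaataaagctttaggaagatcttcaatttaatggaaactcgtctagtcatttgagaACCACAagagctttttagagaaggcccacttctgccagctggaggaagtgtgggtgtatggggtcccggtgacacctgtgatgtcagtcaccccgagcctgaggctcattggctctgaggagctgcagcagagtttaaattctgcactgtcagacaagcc
Ibsp, chr5:104299037-104299170, plus strand: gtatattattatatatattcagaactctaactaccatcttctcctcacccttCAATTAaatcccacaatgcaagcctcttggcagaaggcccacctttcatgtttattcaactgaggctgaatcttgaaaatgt
Bglap, chr3:88384467-88384716, minus strand: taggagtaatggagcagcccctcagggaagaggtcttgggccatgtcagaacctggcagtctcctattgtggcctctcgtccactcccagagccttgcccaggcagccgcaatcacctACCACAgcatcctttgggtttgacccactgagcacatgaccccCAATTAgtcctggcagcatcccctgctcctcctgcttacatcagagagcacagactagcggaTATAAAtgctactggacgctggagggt
Upstream of the RefSeq start, ACCACA began 128 bases before *Spp1*, 164 before *Dmp1* and 132 before *Bglap*. TAATTG, read as CAATTA, began 198 bases before *Ibsp* and 89 before *Bglap*, and TATAAA began 27 bases before *Bglap* and 211 before *Spp1*. None of the marked matches overlapped another. Promoters of 300 bases, 250 before and 50 after the RefSeq start, were given for 8 of the 10 genes. ACCACA occurred in 4 of these 8 (*Runx2*, *Bglap*, *Spp1* and *Dmp1*) against 16.8% of all 32851 promoters given. In *Runx2* the matches began 80 bases before and 23 and 31 bases after the RefSeq start. All of them lay inside the gene by its GENCODE start, so that none was upstream of both starts. TAATTG occurred in 3 of the 8 against 8.0%, and TATAAA in 2 of the 8 against 8.32%. A match is a description of letters, and no binding was measured here.

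The main comparison asked whether PDGFRα reporter+ and PDGFRα reporter- cells differ in these genes. No gene passed limma with Benjamini-Hochberg adjustment at 0.05, whether among the 9 genes or among all 14415 (0 genes, 0%). At an unadjusted p under 0.05 there were 131 genes (0.909%), 65 of them higher and 66 lower in PDGFRα reporter+ cells, and none was among the 9. With the library number as a block, a pairing that the labels do not state, 29 genes passed (0.201%), of which 22 had a positive and 7 a negative difference and 0 belonged to the 9. Without the block, the smallest adjusted p was 1 over all genes, and an exact two-sided permutation test of 2 libraries against 2 cannot go below 0.333. The median log2 difference, PDGFRα reporter+ minus PDGFRα reporter-, was 0.04 over the 9 genes and -0.0035 over all genes tested. Each p of the unblocked fit measures the spread between the 2 libraries of a population, made from pooled mice and grown in culture.

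**Figure D2:**
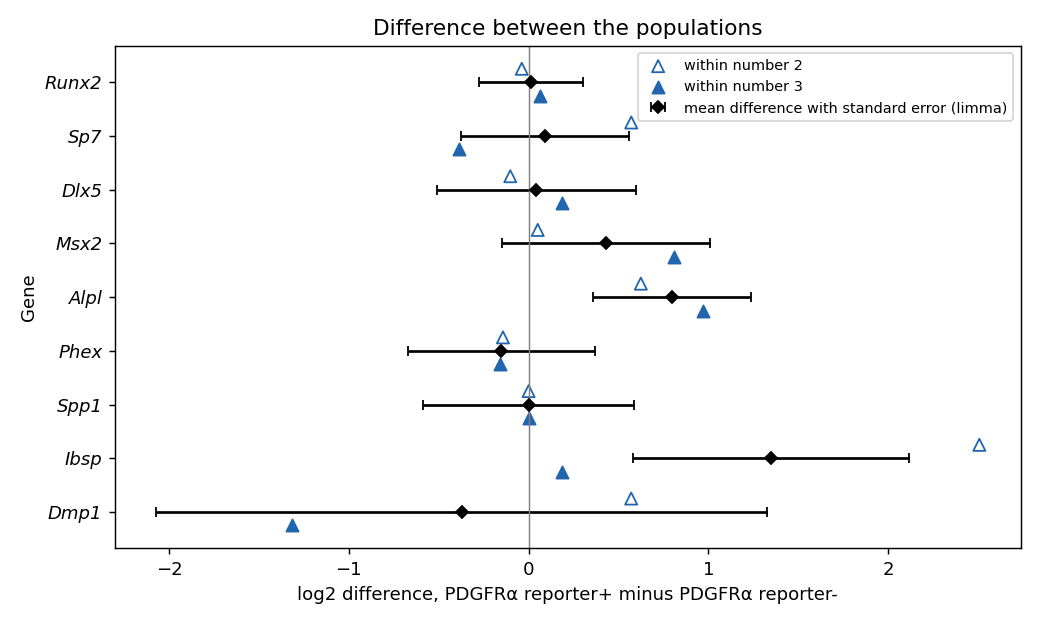
Log2 difference, PDGFRα reporter+ minus PDGFRα reporter- (horizontal axis), of the 9 genes with 4 values, as the mean over both numbers with the standard error from limma (diamonds, bars) and within number 2 (open triangles) and number 3 (filled triangles). *Alpl* lies right of 0 within both numbers, at 0.62 and 0.97, whereas *Sp7* and *Dmp1* lie on opposite sides.

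Among the transcription factors, the mean levels of *Runx2*, *Sp7* and *Dlx5* differed by 0.01 to 0.09 between the populations, and that of *Msx2* by 0.43. *Runx2* (chr17:44495987-44814797, minus strand) had log2 values of 0.50 and 0.28 in the PDGFRα reporter+ libraries 2 and 3 and of 0.54 and 0.22 in the PDGFRα reporter- libraries. The populations overlapped throughout, and the difference was 0.01 ± 0.29 (SE, n = 2 libraries per population; adjusted p = 1, limma). *Supt3*, which overlaps *Runx2* on the opposite strand, was listed at 0.14, -0.09, 0.29 and 0.13 in the same order. The libraries were stranded, but whether strand was used in counting is not stated, so that reads of the pair may be mixed.

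*Sp7* (chr15:102356606-102367182, minus strand) was listed at -1.63 and -2.07 in PDGFRα reporter+ and at -2.20 and -1.68 in PDGFRα reporter- cells. It was thus higher in PDGFRα reporter+ cells within number 2, by 0.57, and lower within number 3, with a difference of -0.39. The mean difference was 0.09 ± 0.47 (SE).

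*Dlx5* (chr6:6877805-6882085, minus strand), which acts upstream of *Sp7*, had log2 values of -2.48 and -2.95 in PDGFRα reporter+ cells and of -2.38 and -3.14 in PDGFRα reporter- cells. The difference was 0.04 ± 0.55 (SE), and the libraries of each number lay nearer to each other than the libraries of each population. *Msx2* (chr13:53466884-53473074, minus strand) was listed at -2.21 and -2.48 against -2.26 and -3.29. Its lowest value was in the PDGFRα reporter- library 3, and its difference of 0.43 ± 0.58 (SE) came down to 0.05 within number 2 and 0.81 within number 3.

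*Alpl* (chr4:137741733-137796384, minus strand) encodes tissue-nonspecific alkaline phosphatase, an enzyme of the cell surface. Its log2 values were 1.00 and 1.96 in PDGFRα reporter+ libraries 2 and 3, and 0.37 and 0.99 in PDGFRα reporter- libraries 2 and 3. The populations did not overlap, but the PDGFRα reporter+ library 2 and the PDGFRα reporter- library 3 were nearly equal. The difference was 0.80 ± 0.44 (SE, n = 2 per population), or 1.74-fold, with an unadjusted p of 0.136 and an adjusted p of 1 in limma. It was 0.62 within number 2 and 0.97 within number 3. Without the PDGFRα reporter+ library 3 it was 0.32, without the PDGFRα reporter- library 2 it was 0.49, and without the PDGFRα reporter+ library 2 it was 1.28. With the number as a block and all 4 libraries, the SE was 0.19 and the unadjusted p 0.00271 (adjusted p = 0.232, limma).

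*Ibsp* encodes bone sialoprotein, which binds mineral and cells in early bone matrix. Its log2 values were -1.02 and -1.45 in PDGFRα reporter+ cells and -3.53 and -1.64 in PDGFRα reporter- cells. The populations did not overlap, but 1 low library, PDGFRα reporter- number 2, set most of the distance. The difference was 1.35 ± 0.77 (SE; unadjusted p = 0.147, adjusted p = 1, limma), made of 2.51 within number 2 and 0.18 within number 3. Without the PDGFRα reporter- library 2 it was 0.40, and without the PDGFRα reporter- library 3 it was 2.29. With the number as a block and all 4 libraries, the SE was 0.53 and the unadjusted p 0.0332 (adjusted p = 0.69, limma).

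*Alpl* and *Ibsp* were 2 of 9 genes with both PDGFRα reporter+ libraries above both PDGFRα reporter- libraries, an order found in 7.59% of all genes tested. The opposite order was found in 0 of the 9 and in 8.1% of all genes. Higher values in PDGFRα reporter+ cells within each number were found for 3 of the 9 (*Alpl*, *Ibsp* and *Msx2*) against 22.1% of all genes. Lower values within each number were found for 1 of the 9 (*Phex*) against 24.8% of all genes.

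*Spp1* encodes osteopontin, a phosphoprotein made by osteoblasts, macrophages and many other cells. It was listed at 11.73 and 11.07 in PDGFRα reporter+ and at 11.73 and 11.07 in PDGFRα reporter- cells. It held rank 1 of all genes in both libraries numbered 2 and rank 3 in both libraries numbered 3, behind *Eef1a1* and *Fth1*. Since quantile normalization gives each rank nearly the same value in every library, these numbers carry the rank and no more. A difference in *Spp1* between populations that leaves its rank unchanged could not be seen in them.

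*Bglap* was blank in the PDGFRα reporter+ library 2 and had log2 values of -2.39 in PDGFRα reporter+ library 3, -3.32 in PDGFRα reporter- library 2 and -2.30 in PDGFRα reporter- library 3. Within number 3 the populations differed by -0.09. *Bglap* was not in the main fit, which took only genes with a value in all 4 libraries. Its near copy *Bglap2* was listed at -2.47 and -1.76 in PDGFRα reporter+ cells and at -2.31 and 0.21 in PDGFRα reporter- cells, so that the PDGFRα reporter- library 3 stood above the rest, and *Bglap3* was blank in all libraries.

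*Phex* (chrX:157162075-157415312, minus strand), a membrane endopeptidase, had log2 values of -1.91 and -1.18 in PDGFRα reporter+ and of -1.77 and -1.02 in PDGFRα reporter- cells. The difference was small and alike within number 2 (-0.14) and number 3 (-0.16), with a mean of -0.15 ± 0.52 (SE). *Dmp1*, an acidic matrix protein of osteocytes, was listed at -4.86 and -2.51 in PDGFRα reporter+ and at -5.43 and -1.19 in PDGFRα reporter- cells. The PDGFRα reporter- cells thus held both its lowest and its highest value. Its difference was -0.37 ± 1.70 (SE), with 0.57 within number 2 and -1.32 within number 3.

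The libraries were then compared by number, which asks how far those numbered 3 differ from those numbered 2 over both populations. By this comparison 2208 of 14415 genes passed limma at an adjusted p under 0.05 (15.3%), 1190 of them higher and 1018 lower in number 3. Of the 9 genes, 1 passed (*Dmp1*). Libraries with the same number may share a preparation of cells, which is not stated, and such p-values then measure only the spread between populations of 1 preparation. The SD of the log2 differences over all genes was 0.85 between numbers and 0.41 between populations. For 6 of the 9 genes the difference between numbers was the larger in size, as it was for 75.7% of all genes tested.

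**Figure D3:**
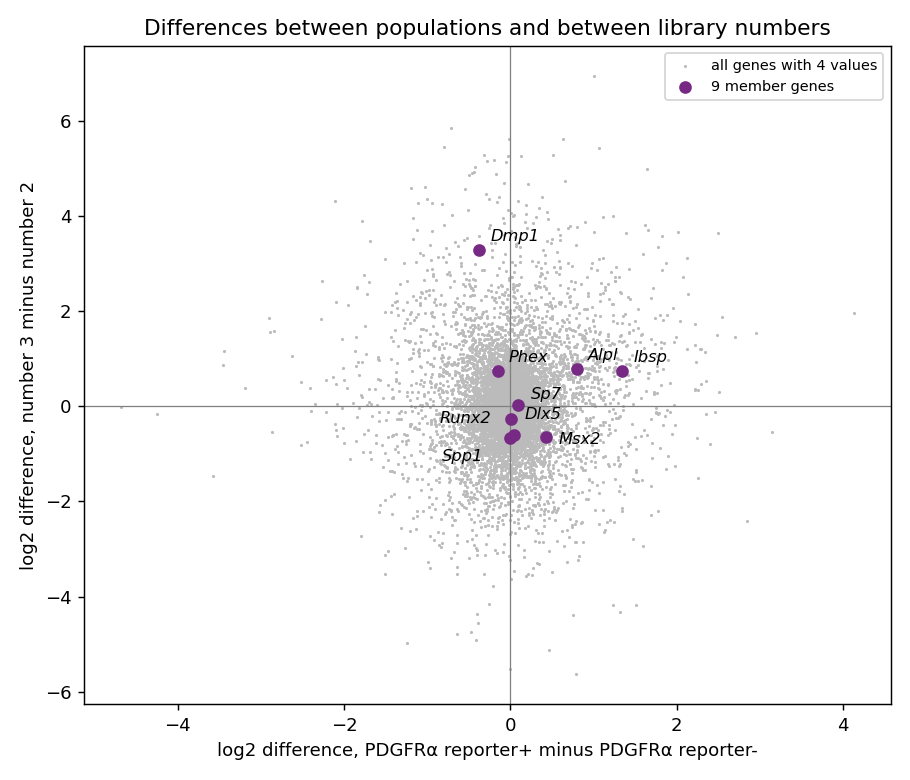
Log2 difference, PDGFRα reporter+ minus PDGFRα reporter- (horizontal axis), against log2 difference, number 3 minus number 2 (vertical axis), for the 14415 genes with 4 values (grey) and the 9 genes of the osteoblast lineage (purple). *Dmp1* lies highest of the 9 at 3.29, while *Alpl* (0.80) and *Ibsp* (1.35) lie farthest to the right.

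*Dmp1* was 9.78-fold higher in number 3 than in number 2, a log2 difference of 3.29 ± 0.59 (SE, n = 2 per number; adjusted p = 0.0275, limma). It rose by 2.35 in PDGFRα reporter+ and by 4.23 in PDGFRα reporter- cells. The call was lost with a pseudocount of 1 (0.34 on that scale, adjusted p = 0.0993), without the variance trend (3.29, adjusted p = 0.064), with blanks set to the lowest value (3.29, adjusted p = 0.0508) and in 3 of the 4 fits that left out a library. These were the fits without PDGFRα reporter+ number 2 (3.58, adjusted p = 0.089, limma), without PDGFRα reporter- number 2 (3.01, adjusted p = 0.111) and without PDGFRα reporter- number 3 (2.63, adjusted p = 0.083). *Phex* was also higher in both libraries numbered 3 without passing the test, with a log2 difference of 0.74 ± 0.25 (SE; adjusted p = 0.108, limma).

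*Phex* and *Dmp1* were thus 2 of 9 genes with both libraries numbered 3 above both numbered 2, against 36.4% of all genes. The opposite order was found for 4 of the 9 (*Runx2*, *Dlx5*, *Msx2* and *Spp1*) against 28.8%. Their log2 differences, number 3 minus number 2, were -0.27 for *Runx2*, -0.61 for *Dlx5*, -0.65 for *Msx2* and -0.66 for *Spp1*, and the lowest adjusted p among these 4 was 0.126 (limma), for *Spp1*. The *Spp1* value is the step between the values of rank 1 and rank 3. It carries a fall in rank within both populations, and its size and p measure no amount of change. *Msx2* ranged from -1.05 to -0.25 when a library was left out. *Alpl*, *Ibsp* and *Sp7* overlapped between the numbers, with log2 differences of 0.79, 0.73 and 0.03. With the population as a block, *Alpl* passed (0.79 ± 0.19, SE; adjusted p = 0.0202, limma), and without the block its difference was 0.31 to 1.28 when a library was left out.

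Other genes of bone formation were counted in 4 lists with 31 genes, 25 of which had a value in all libraries. Between populations 0 of the 25 passed limma, and 0 had an unadjusted p under 0.05. The median log2 difference, PDGFRα reporter+ minus PDGFRα reporter-, was -0.12, with 9 genes higher and 16 lower. Between numbers 4 of the 25 passed, beside 15.3% of all genes, with *Msx1* and *Slc20a2* higher and *Zfp521* and *Pdpn* lower in number 3. Each of these 4 calls was lost without the variance trend and in 3 or 4 of the fits that left out a library, with adjusted p-values of 0.0603 to 0.192 (limma). With the population as a block, 9 of the 25 passed, beside 21.3% of all genes.

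**Figure D4:**
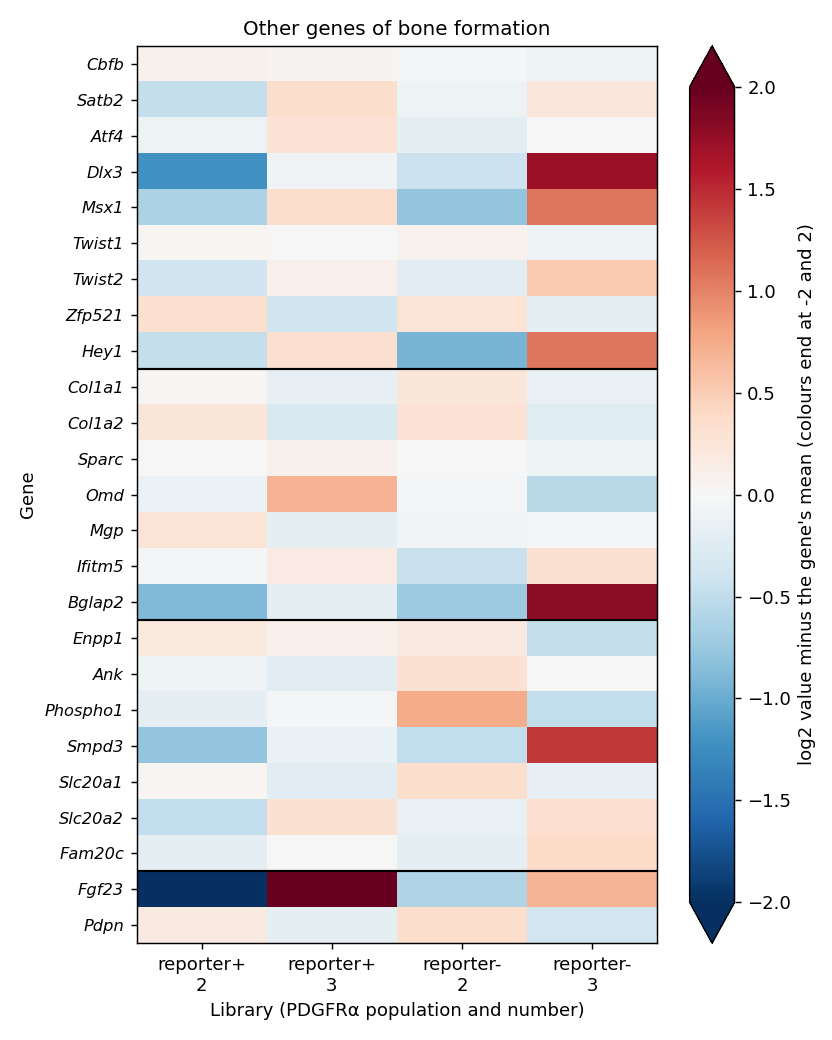
Log2 value minus the mean of the gene over the 4 libraries (color, ending at -2 and 2) for 25 other genes of bone formation (rows, with lines between transcription factors, matrix proteins, mineral enzymes and transporters, and osteocyte genes) in the 4 libraries (columns). *Dlx3*, *Bglap2* and *Smpd3* are highest in the PDGFRα reporter- library 3, at log2 values of 0.37, 0.21 and -0.23.

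Among 10 transcription factors and partners, 9 had 4 values, 3 higher and 6 lower in PDGFRα reporter+ cells by the mean. *Atf4*, *Twist1* and *Zfp521* had log2 differences between populations of 0.19, 0.04 and -0.09. *Dlx3*, which is active in osteoblasts and skin, had log2 values of -2.55 and -1.42 in PDGFRα reporter+ and of -1.77 and 0.37 in PDGFRα reporter- cells, a difference of -1.28 ± 0.89 (SE; adjusted p = 1, limma) that was -0.21 without the PDGFRα reporter- library 3 and -2.35 without the PDGFRα reporter- library 2. *Msx1*, a homeobox gene related to *Msx2*, differed by 1.42 ± 0.30 (SE; adjusted p = 0.0394, limma) between numbers, while *Msx2* differed by -0.65.

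Of 10 bone matrix proteins, 7 had 4 values, with 4 higher and 3 lower in PDGFRα reporter+ cells. *Mgp*, an inhibitor of mineralization, *Col1a2*, a chain of type I collagen, and *Sparc* (osteonectin) differed between populations by 0.09, -0.06 and 0.09, whereas *Bglap2* differed by -1.07 ± 0.96 (SE) and *Omd* by 0.59 ± 0.50 (SE). In the gene cluster on chromosome 5, *Mepe* was blank in all libraries and *Dspp* was listed only in the PDGFRα reporter+ library 2.

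All 7 mineral enzymes and transporters had 4 values, with 1 higher and 6 lower in PDGFRα reporter+ cells. Of these, 5 were lower within both numbers (beside 24.8% of all genes) and 1 without overlap (*Ank*, beside 8.1%), and none passed limma. The higher one was *Enpp1* (0.29 ± 0.26, SE), which makes the pyrophosphate that alkaline phosphatase breaks down. *Ank*, which carries pyrophosphate out of the cell, was listed at 5.33 and 5.19 in PDGFRα reporter+ and at 5.71 and 5.40 in PDGFRα reporter- cells, and this order of the populations (difference -0.30 ± 0.17, SE) was opposite to that of *Alpl*. *Smpd3*, a sphingomyelinase needed for mineralization, differed by -0.93 ± 0.78 (SE).

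Of 4 osteocyte genes, 2 had values in all libraries (*Fgf23* and *Pdpn*). *Dkk1* was blank in all libraries, and *Sost*, the sclerostin gene, had a value only in the PDGFRα reporter- library 3. *Fgf23* was listed at -6.90 and -0.95 in PDGFRα reporter+ and at -4.48 and -3.21 in PDGFRα reporter- cells. Its highest value, unlike that of *Dmp1*, was thus in the PDGFRα reporter+ library 3. Both libraries numbered 3 lay above both numbered 2 for *Fgf23*, as for *Dmp1*, beside 36.4% of all genes. The log2 difference of *Fgf23*, number 3 minus number 2, was 3.61 ± 1.11 (SE, adjusted p = 0.0883, limma). With the population as a block, its adjusted p was 0.028 (limma). *Pdpn*, a gene of early osteocytes and of many stromal cells, was 0.54 lower in number 3 (log2 difference -0.54 ± 0.11, SE; adjusted p = 0.0376, limma).

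By an order noticed after the values were seen, 2 of the 9 genes (*Phex* and *Dmp1*) and 9 of the 25 other genes were highest in the PDGFRα reporter- library 3. The same was true of 29.1% of all genes tested.

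Markers of other cell types were examined by list, and no marker passed limma between populations. An unadjusted p under 0.05 (limma) was found for 3 of 10 macrophage and 3 of 5 endothelial markers. The same held for 1 of 7 osteoclast, 1 of 5 chondrocyte and 0 of 6 stromal markers, beside 0.909% of all genes. Between numbers, *Postn* (3.03) and *Tek* (3.32) passed as higher in number 3. *Prrx1* (-0.54), *Nfatc1* (-1.47), *Sox9* (-0.73) and *Acan* (-3.54) passed as lower, beside 15.3% of all genes that passed in either direction. All 10 macrophage markers had a higher mean in PDGFRα reporter+ cells, 7 of them without overlap (beside 7.59% of all genes) and 9 of them within both numbers (beside 22.1%), with a median log2 difference of 1.00. With the number as a block, 1 of them passed (*Tyrobp*, adjusted p = 0.0437, limma). Their summed level on the linear scale of the table was 234 and 275 in PDGFRα reporter+ and 93.1 and 176 in PDGFRα reporter- cells, most of it from *Lyz2* (log2 values of 7.65, 7.88, 6.27 and 7.25). Of 7 osteoclast markers with 4 values, 6 had a higher mean in PDGFRα reporter+ cells, 4 of them without overlap (beside 7.59% of all genes) and 4 within both numbers (beside 22.1%). The list summed to 15.7 and 21.8 in PDGFRα reporter+ and to 10.8 and 5.09 in PDGFRα reporter- cells, of which *Mmp9* alone gave 9.24, 14.8, 4.53 and 2.66 and differed by 1.75 ± 0.37 (SE; adjusted p = 1, limma). *Alpl* and *Ibsp* were higher in the same population as these lists, and the part of such cells in that difference was not tested.

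Chondrocyte markers summed to 285 and 254 in PDGFRα reporter+ and to 150 and 190 in PDGFRα reporter- cells, most of it from *Comp* (log2 difference between populations 0.74). Of the 5 chondrocyte markers with 4 values, 3 were lower in PDGFRα reporter+ cells within both numbers, beside 24.8% of all genes (*Sox9*, *Col2a1* and *Col10a1*, with log2 differences of -0.24, -1.51 and -0.89), and the median difference of the list was -0.24. Endothelial markers summed to 0.296 and 1.15 in PDGFRα reporter+ and to 0.798 and 3.37 in PDGFRα reporter- cells, so that the sum was highest in the PDGFRα reporter- library 3, as *Dmp1* and *Phex* were. *Tek* gave 1.04 of the 1.15 and 2.15 of the 3.37 in the libraries numbered 3. Of the 5 endothelial markers, 3 (*Pecam1*, *Cdh5* and *Kdr*) lay lower in both PDGFRα reporter+ libraries, beside 8.1% of all genes. Their log2 differences were -3.19, -4.26 and -1.82 (adjusted p = 1, limma). *Tek* and *Vwf* overlapped between the populations, with log2 differences of -0.77 and 0.09. Stromal markers summed to 507 and 457 against 581 and 444. Of these 6 markers, 1 had a higher and 5 a lower mean in PDGFRα reporter+ cells. Lower values within both numbers were found for 4, beside 24.8% of all genes. The part of any of these cell types in the values of *Dmp1* and *Phex* was not tested.

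**Figure D5:**
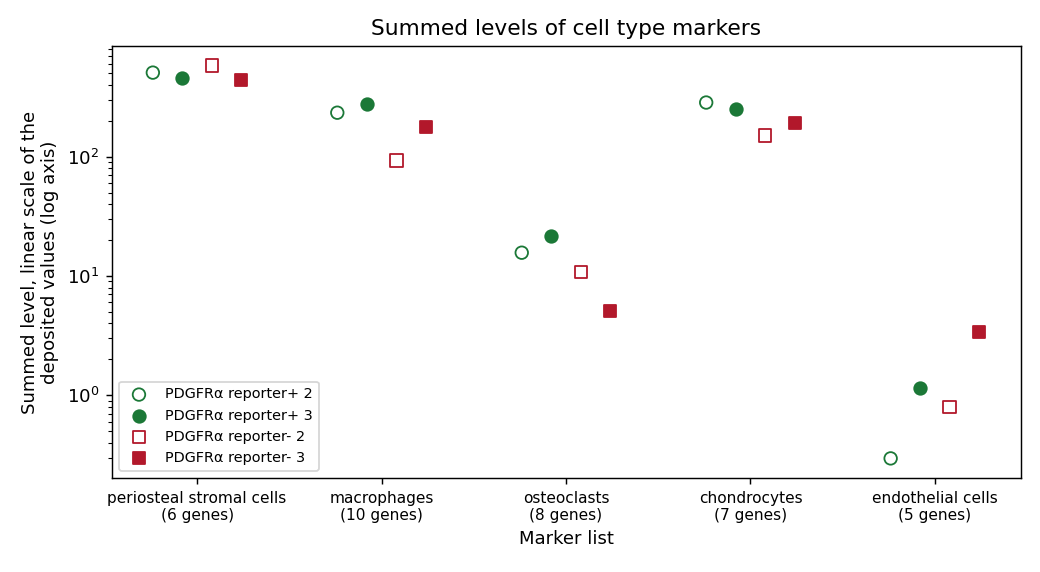
Sum of the linear values (2 to the power of the deposited log2 value, log axis) of 5 lists of cell type markers in the 4 libraries. Macrophage markers sum to 234 and 275 in PDGFRα reporter+ against 93.1 and 176 in PDGFRα reporter- cells, while endothelial markers stay at or below 3.37 in all libraries.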

How the data were processed

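Total RNA of 4 libraries, 2 of PDGFRα reporter+ and 2 of PDGFRα reporter- cells, was sequenced by the authors as stranded paired-end libraries. The authors deposited 1 log2 value per gene symbol and library after quantile normalization, with a blank where there was no value. Their processing notes name bcl2fastq 2.17.1.14, Partek 7.0 and GRCm38.p6, while the aligner, the counting, the annotation and the filters are not given in the sources used here. Columns showed the population and a number (2 or 3) that the sample labels do not use, so that libraries were assigned to their population only.

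The 10 genes, the other lists and the tests were chosen with earlier results of these data known. The values were used as deposited. Tests used limma 3.58.1 under R 4.3.3: lmFit and eBayes, its prior variance following the mean level, two-sided and unblocked, on genes listed in all 4 libraries, with Benjamini-Hochberg adjustment over 14415 genes at 0.05. The same model compared the numbers. It was tested on simulated data, and no value from that test is given here. Named were all 10 genes and, of each other list, up to 3 genes with the highest mean and up to 3 with the largest difference between populations, besides 4 called between numbers, blank genes and markers. The alternatives were of 7 kinds, including leaving out each library. Positions and coding sequences were from GENCODE M21 and promoters from RefSeq, both GRCm38. Python 3.11.15 and matplotlib 3.10.9 were used.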

Additional observations from a re-analysis of the deposited data

Results flagged for a closer look

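The difference between PDGFRα reporter+ and PDGFRα reporter- cells had opposite signs within numbers 2 and 3 for 4 of the 9 genes, as for 53.1% of all 14415 genes. With 1 library of each population in each number, this change between numbers was not tested. The difference within number 3 less that within number 2 was -1.89 for *Dmp1* (from 0.57 to -1.32), -0.96 for *Sp7* (from 0.57 to -0.39), 0.29 for *Dlx5* (from -0.10 to 0.19) and 0.10 for *Runx2* (from -0.04 to 0.06) on the log2 scale.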

How the results depend on the processing

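Between populations, 0 of the 9 genes was called under the 7 kinds of alternative, of which the minimum mean of 0 tested only 3 of them (*Runx2*, *Alpl* and *Spp1*), and the count over all genes was 0 under each of them but the replicate block, with which limma called 29 genes. What the number stands for is not stated, and deviations of same-numbered libraries from their population means had a correlation of 0.681 across genes, over 2 pairs. Under the replicate block *Alpl* had an unadjusted p of 0.00271 and an adjusted p of 0.232 between populations (limma), and *Ibsp* an adjusted p of 0.69.

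Between numbers, the 2208 calls over all genes became 3065 under the replicate block, 582 without the variance trend and 225 to 1034 when a library was left out. The count of 1 called gene among the 9 became 2 under the replicate block (*Dmp1* and *Alpl*, the latter at an adjusted p of 0.0202, beside 21.3% of all genes) and 0 without the trend, with the pseudocount of 1 or with blanks set to the lowest value, where *Dmp1* had adjusted p-values of 0.064, 0.0993 and 0.0508. With a minimum mean of 0, which removes *Dmp1*, the 1 called gene was *Spp1* (adjusted p = 0.0105, limma). Its values are set by its ranks, so that this call carries the step from rank 1 to rank 3 and no size of change. Over all genes, 1923 of 10224 passed with this minimum mean. The counts were 1963 of 14415 with the pseudocount of 1 and 1586 of 16742 with blanks set to the lowest value. Leaving out a library gave 0 to 1 called genes and log2 differences of 2.63 to 3.95 for *Dmp1*. The cause was not tested.

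Leaving out a library unbalances the numbers, and the sign then turned for the differences that follow. Between populations the ranges were -0.15 to 0.17 for *Runx2*, -0.17 to 0.35 for *Sp7*, -0.34 to 0.42 for *Dlx5*, -0.33 to 0.33 for *Spp1*, -0.53 to 0.22 for *Phex*, -2.49 to 1.74 for *Dmp1* and -0.085 to 0.94 for *Msx2*. Among the other genes they were -0.0088 to 0.39 for *Atf4*, -0.051 to 0.13 for *Twist1*, -0.45 to 0.27 for *Zfp521*, -1.20 to 0.66 for *Msx1*, -0.13 to 0.31 for *Mgp*, -0.33 to 0.22 for *Col1a2*, -2.33 to 0.19 for *Bglap2*, -0.037 to 0.61 for *Enpp1*, -0.59 to 0.22 for *Slc20a2*, -1.88 to 0.028 for *Smpd3*, -3.05 to 2.89 for *Fgf23*, -0.35 to 0.37 for *Pdpn*, -0.16 to 0.26 for *Pdgfra*, -0.64 to 0.15 for *Sox9*, -3.60 to 0.58 for *Col2a1* and -2.57 to 1.03 for *Tek*. *Fgf23* also turned with the pseudocount of 1, from -0.08 to 0.20. Between numbers the sign turned for *Sp7* (-0.25 to 0.32), *Ibsp* (-0.52 to 1.99), *Sparc* (-0.10 to 0.078) and *Omd* (-0.46 to 0.78). Between populations the sign held but the size moved by over 1.5 times for *Alpl* (0.32 to 1.28), *Ibsp* (0.40 to 2.29), *Dlx3* (-2.35 to -0.21), *Omd* (0.18 to 1.00), *Ank* (-0.45 to -0.14), *Sparc* (0.039 to 0.14), *Col10a1* (-1.74 to -0.035), *Lyz2* (0.51 to 1.496) and *Ptprc* (0.39 to 1.46).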
